A study of Mus musculus with 2 samples.

Results

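Chaperone and heat shock genes were taken as the autosomal protein-coding genes of the GENCODE vM21 annotation whose symbols begin with Hspa, Hspb, Hspd, Hspe or Hsph, with Dnaja, Dnajb or Dnajc and a digit, or with Cct and a digit. The rule used symbols only and gave 79 of 20807 autosomal protein-coding genes. Their H3K4me3, a histone mark found at the starts of active genes, was read in lung group 2 innate lymphoid cells (ILC2s), tissue-resident lymphocytes that lack antigen receptors and secrete type 2 cytokines. The mark had been profiled by CATCH-seq, which precipitates unfixed chromatin of few cells after digestion with micrococcal nuclease, in about 3000 ILC2s per library from C57BL/6J offspring aged 8 weeks. Control mothers received PBS with alum intraperitoneally on days -21 and -7, were bred to untreated males and received PBS intranasally from gestation day 4 to day 17. Asthmatic mothers received 100 µg ovalbumin (OVA) with alum on the same days and repeated intranasal doses of 500 µg OVA each over the same period. Offspring of both sexes were used in the study, and the labels do not give how many animals stand behind a library. Each group is a single library, so values have no replicate and no test between the groups was possible.

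Chaperones keep other proteins folded. The HSP70 proteins (Hspa genes) and their larger relatives (Hsph1, Hspa4 and Hspa4l) bind exposed stretches of unfolded protein in cycles of ATP hydrolysis. The J-domain proteins (Dnaja, Dnajb and Dnajc genes) start these cycles, while the small heat shock proteins (most Hspb genes) hold unfolded protein without ATP. Hspd1 and Hspe1 encode the chaperonin of mitochondria and its lid, and the Cct genes encode subunits of the ring that folds actin and tubulin in the cytosol. On heat or other stress, heat shock factors bind inverted repeats of GAA upstream of part of these genes. The HSP90 genes, the first CCT subunit Tcp1 and the crystallins lie outside the symbol rule and are given with the partners.

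Stretches upstream of the RefSeq start of 6 of these genes are shown because they carry the heat shock element and because they set how the peaks at these genes can be read. Those of Dnaja1, Dnajb6 and Hspe1, 30 bases each, lie within exons of the GENCODE annotation. Sequences are from RefSeq on GRCm38.p6, 5′ to 3′ on the strand of the gene, and 60 of the 79 genes have an entry. Capitals mark the element, GAANNTTC in the first 4 and the longer form with a further unit, GAANNTTCNNGAA or TTCNNGAANNTTC, in the last pair, where in Hspe1 copies on both strands overlap.

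Hspa1a: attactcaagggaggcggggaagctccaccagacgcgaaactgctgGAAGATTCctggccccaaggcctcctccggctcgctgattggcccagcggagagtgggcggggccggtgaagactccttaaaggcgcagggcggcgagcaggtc
Hspa1b: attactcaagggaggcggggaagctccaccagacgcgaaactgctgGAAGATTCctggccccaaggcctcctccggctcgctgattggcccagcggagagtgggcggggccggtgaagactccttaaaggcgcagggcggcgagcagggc
Hspb1: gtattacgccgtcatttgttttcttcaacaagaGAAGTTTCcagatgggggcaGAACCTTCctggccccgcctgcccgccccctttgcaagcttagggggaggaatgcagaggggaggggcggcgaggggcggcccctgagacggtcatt
Dnaja1: cctctaGAAAATTCtacgaggctcgggaac
Dnajb6: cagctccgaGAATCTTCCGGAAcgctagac
Hspe1: gtccgTTCTAGAACCTTCCGGAAggccccg

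Hspa1a (chr17:34972157-34972306, minus strand) and Hspa1b (chr17:34959239-34959388, minus strand) encode the stress-inducible cytosolic HSP70. Over the 300 bases of their RefSeq entries, which run from 250 before to 50 after the start, they were identical at 296 (98.7%). Reads from this stretch that cover none of the 4 differing bases cannot be placed with certainty at one copy or the other. Hspb1 (chr5:135887769-135887918, plus strand), the small heat shock protein of many cell types, carried 2 copies of the shorter element. Dnaja1 (chr4:40722338-40722367, plus strand) encodes a cytosolic J-domain partner of HSP70, and Dnajb6 (chr5:29735843-29735872, plus strand) a J-domain protein that holds back protein aggregation. Hspe1 (chr1:55088054-55088083, plus strand) is read away from Hspd1, so the element printed lies at the start of both genes.

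In the peak list of offspring of control mothers (the control list), 65 of the 79 chaperone genes had a peak within 1000 bp of an annotated transcript start, called a start peak here. That is 82.3% (exact Clopper-Pearson 95% interval 72.1 to 90.0%), beside 52.5% of all autosomal protein-coding genes. The list of offspring of asthmatic mothers (the asthmatic-mother list) held a start peak for 54, or 68.4% (56.9 to 78.4%), beside 43.7% of all. All 54 were also in the control list, and 43.1% of all genes were in both. A start peak in the control list alone was found for 11 genes (13.9%, 7.16 to 23.5%), beside 9.37% of all, so this share is near the background. None of the 79 had a start peak in the asthmatic-mother list alone, which allows a share of up to 4.56%, beside 0.634% of all. The remaining 14 (17.7%, 10.0 to 27.9%) had one in neither list, beside 46.9% of all. Intervals cover counting error only. A gene whose signal lay under the caller's threshold is not listed, so a missing peak is not a missing mark, and in a bulk library fewer marked cells and less mark per cell cannot be told apart.

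The lists differed as wholes. They held 42126 and 51610 peaks, with median widths of 315 and 249 bp, and covered 16.2 and 15.4 Mb in the control and asthmatic-mother lists, respectively. The lists give no reads per library, but the fragments behind each peak could be derived from its fold and −log10 p. They were 9 to 40 (median 27) at the strongest start peaks of the 65 chaperone genes in the control list and 10 to 24 (median 17) at the 54 of the other list. The caller's lowest background was 96.1 and 100 fragments per 10 kb. Of 12 ILC2 marker genes, 9 and 6 had a start peak, among them Rora, Id2, Il1rl1 and Il2ra in both lists. Gata3, the factor that sets ILC2 identity, Il7r and Il5 had one in the control list alone, and Icos, Klrg1 and Il13 in neither. The limit of 1000 bp matters here. The Gata3 control peak lay 701 bp from a start, at the 24.7th percentile, and the asthmatic-mother list held a peak at 1501 bp. For Il7r and Il5 the nearest asthmatic-mother peaks were 11826 and 13515 bp away. For Icos the nearest peaks were at 1141 bp in the control list and 1318 bp in the other. No marker of T cells (4 genes), B cells (4), macrophages (4), neutrophils (3) or fibroblasts (3) had a start peak in either list. In the control list 2 of 4 epithelial markers, Epcam and Cdh1, and 1 of 3 endothelial markers, Kdr, had one, beside none in the asthmatic-mother list. The study's gate for adult ILC2s (CD45+, lineage-, CD90.2+, ST2+) leaves out cells without CD45, and the part of other cells in the differences below was not tested.

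By family, start peaks were counted as follows. The HSP70 family (Hspa) had 12 of 13 genes in the control list (92.3%, 64.0 to 99.8%) and 11 in the asthmatic-mother list (84.6%, 54.6 to 98.1%). Dnajc, the largest and most mixed J-domain family, had 24 of 28 (85.7%, 67.3 to 96.0%) and 19 (67.9%, 47.6 to 84.1%). Dnajb had 9 of 13 (69.2%, 38.6 to 90.9%) and 8 (61.5%, 31.6 to 86.1%), and Dnaja 4 and 3 of 4. The Cct family had 7 of 8 (87.5%, 47.3 to 99.7%) and 6 (34.9 to 96.8%). The Hspb family, grouped by symbol, had the lowest shares, with 4 of 8 genes (15.7 to 84.3%) and 2 (3.19 to 65.1%). Those 2, Hspb6 and Hspb11, shared their peaks with Proser3 and Lrrc42, so the mark there cannot be given to an Hspb gene. The Hspb counts moved with the settings: 2 in the control list with a −log10 q of at least 5, and 4 in the asthmatic-mother list within 2000 bp. With a −log10 q of at least 5, 7 of the 13 HSP70 genes were left in the asthmatic-mother list. Over all chaperone genes 62 and 47 were left in the control and asthmatic-mother lists. The share of all coding genes was not computed at these settings, so the drops cannot be called particular to a family. Hsph1, Hspd1 and Hspe1 had a start peak in both lists, as did Hspbap1 and Hspbp1, which are named for proteins that bind small heat shock proteins and HSP70. With 8 to 28 genes in the larger families, the intervals of all families overlap.

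**Figure D1:**
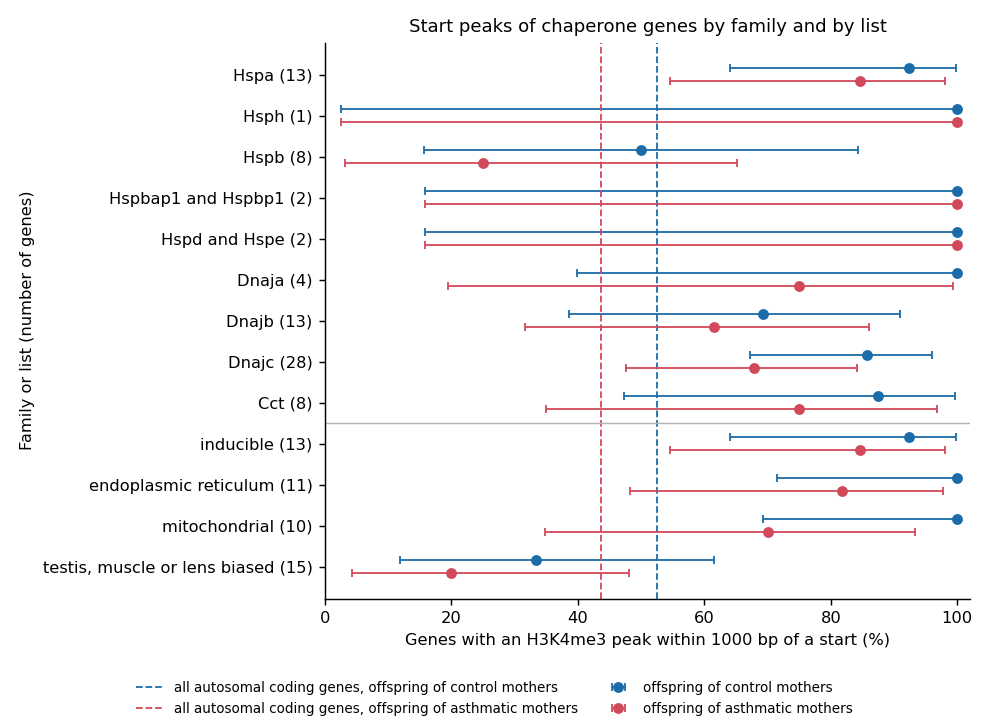
Share of the genes of each family (above the grey line) and each functional list (below it) with an H3K4me3 start peak, in percent, for 1 library of offspring of control mothers (blue) and 1 of offspring of asthmatic mothers (red). Points are shares, bars exact Clopper-Pearson 95% intervals, and dashed lines the shares over all autosomal protein-coding genes, 52.5% and 43.7%. The Hspb family (4 and 2 of 8 genes) and the testis, muscle or lens list (33.3% and 20.0%) sit lowest.

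Start peaks were also counted by function. All 11 genes of the endoplasmic reticulum list, among them Hspa5, the main HSP70 of that compartment, had a start peak in the control list (71.5 to 100%) and 9 (81.8%, 48.2 to 97.7%) in the asthmatic-mother list. Of the mitochondrial list the counts were 10 and 7 of 10 (70.0%, 34.8 to 93.3%, in the asthmatic-mother list). Of 13 heat-inducible genes, 12 (92.3%, 64.0 to 99.8%) and 11 (84.6%, 54.6 to 98.1%) had one. Of 15 genes known mainly from testis, muscle or lens, 5 had a start peak in the control list (33.3%, 11.8 to 61.6%) and 3 in the asthmatic-mother list (20.0%, 4.33 to 48.1%). In the asthmatic-mother list this interval overlaps that of the mitochondrial list, and the differences between lists were not tested. Of those 5, Hspa1l shared its only peak with Hspa1a, Cct6b its peaks with Zfp830 and Hspb6 its peak in each list with Proser3, so the mark there cannot be given to the restricted gene. The other two, Hspa2 and Hspb9, shared theirs with no other coding start.

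Of the 40 autosomal partner genes listed beside these families, 36 had a start peak in both lists, 0 in the control list alone and 4 in neither, beside 43.1% of all genes in both and 46.9% in neither. The 36 include the cytosolic HSP90 genes Hsp90aa1 (−log10 q at the 96.7th percentile of the control list and the 61.9th of the asthmatic-mother list) and Hsp90ab1 (94.4th and 70.7th), the mitochondrial HSP90 Trap1 (90.6th and 82.8th), Tcp1 (80.3rd and 82.2nd), the factor that drives the heat shock response, Hsf1 (92.7th and 69.9th), and the BAG exchange factors Bag1 to Bag6. The 4 without a peak were the crystallins Cryaa and Cryab and the heat shock factors Hsf4 and Hsf5. A further listed partner, the prefoldin gene Vbp1, lies on the X chromosome and is outside these counts. It had a start peak in the control list, at the 59.0th percentile. The nearest asthmatic-mother peak was 40413 bp away.

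The 54 chaperone genes with a start peak in both lists resembled other marked genes. Their start peaks had a median summed width of 672 bp in the control list (lowest 236, highest 1277) and 430 bp in the asthmatic-mother list (156 to 846), beside 686 and 404 bp over the 8968 autosomal coding genes in both lists. They were wider in the control list for 53 of 54 genes (98.1%), beside 94.7% of all genes, and Dnajc15, a J-domain protein of the inner mitochondrial membrane, was the exception, with 463 and 469 bp. The strongest start peak lay at a median percentile of 88.1 by −log10 q among all peaks of the control list and 63.0 in the asthmatic-mother list, beside 85.8 and 61.6 over all genes. Most start peaks stand near the top of the control list, and ranked among start peaks alone the medians were 64.0 and 52.2, beside 57.3 and 50.5. Fragments at the summit had medians of 29 and 17, beside 27 and 17. All 54 had more fragments in the control list, beside 97.3% of all genes, and the median ratio of the asthmatic-mother to the control fragments was 0.592, beside 0.611. Lower values in the asthmatic-mother list were thus found at most marked genes, chaperones and others.

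**Figure D2:**
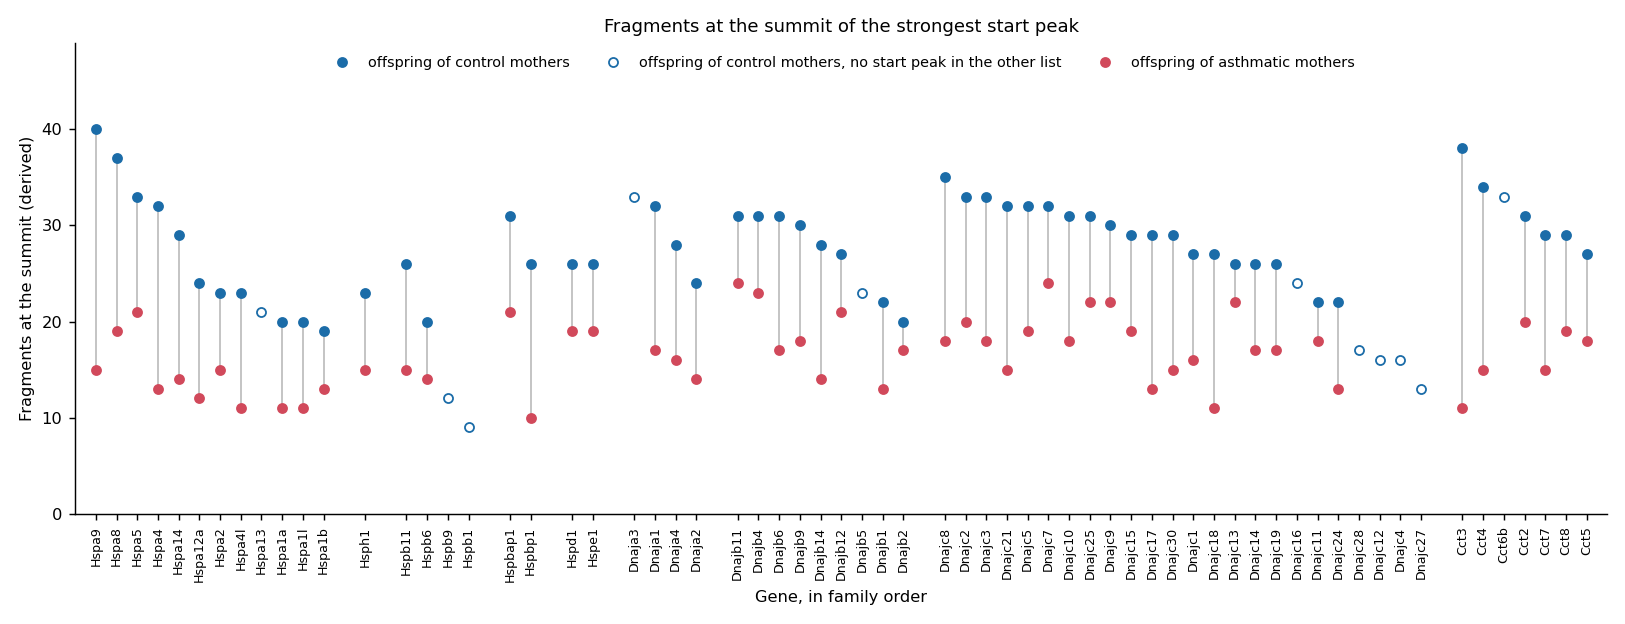
Fragments at the summit of the strongest start peak (derived from the fold and −log10 p, linear scale from 0) for the 65 chaperone genes with a start peak in the control list, grouped by family. Blue, offspring of control mothers (open where the other list has no start peak); red, offspring of asthmatic mothers; grey lines join the values of a gene. Control values run from 9 at Hspb1 to 40 at Hspa9 and asthmatic-mother values from 10 at Hspbp1 to 24 at Dnajb11 and Dnajc7.

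Among the HSP70 genes, Hspa9, the HSP70 of mitochondria, had the most fragments of all chaperone genes in the control list, 40 (exact Poisson 95% interval 28.6 to 54.5), beside 15 (8.40 to 24.7) in the other library. Its peak stood at the 98.3rd percentile of the control list and the 57.2nd of the asthmatic-mother list. Hspa8, the constitutive cytosolic HSP70, had the widest start peaks in the control list, 1277 bp in 2 peaks, and 587 bp in 2 peaks in the asthmatic-mother list. Its fragments were 37 (26.1 to 51.0) and 19 (11.4 to 29.7). Hspa5, which also acts as the sensor partner in the unfolded protein response, had 33 and 21 fragments and kept a high rank, at the 91.2nd and 84.5th percentiles. Hspa4 and Hspa4l, exchange factors for HSP70, had 32 and 13, and 23 and 11 fragments, with percentiles of 90.5 and 27.0 for Hspa4 and 79.7 and 11.6 for Hspa4l. Their relative Hsph1 had 23 and 15 fragments. Ranked among the strongest start peaks of genes alone, Hspa9 stood at 97.5 and 45.5, Hspa8 at 58.6 and 41.1, Hspa5 at 73.8 and 83.6, Hspa4 at 71.1 and 17.2, and Hspa4l at 42.1 and 6.78.

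The inducible pair Hspa1a and Hspa1b ranked low. Hspa1a, with Hspa1l on the other strand, had a control peak from 34971684 to 34972033 of chromosome 17, with a fold over background of 6.48, 20 fragments and the 67.8th percentile. The asthmatic-mother peak ran from 34971865 to 34972097, with a fold of 4.11, 11 fragments and the 4.32nd percentile. At Hspa1b the values were a fold of 4.64 and 19 fragments (36.7th percentile) and a fold of 4.48 and 13 fragments (14.7th). Ranked among start peaks alone, Hspa1a stood at 24.4 in the control list and 2.72 in the other. On that ranking Hspa1b stood at 7.83 and 8.86, so it was low in both lists and did not fall. Hspa1b was the lowest of the 54 genes in the control list by percentile, followed by Dnajb1 at 66.7, the stress-inducible J-domain partner of HSP70. The 75 bases around the control summit of Hspa1a, and around the summit of the stronger Hspa1b peak in both lists, occur a second time in the genome, so reads there cannot be placed with certainty. The peaks of Hspa1a and the stronger ones of Hspa1b lay downstream of the starts, and a weaker asthmatic-mother peak of Hspa1b, from 34959545 to 34959700, lay upstream, with a summit that occurs once in the genome. None reached the stretches printed above with their element.

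Hspd1 and Hspe1 shared their peaks. In the control list a single peak of 1135 bp, from 55087406 to 55088540 of chromosome 1, covered both starts, with 26 fragments (17.0 to 38.1). In its place the asthmatic-mother list held 2 peaks, from 55087450 to 55087858 and from 55088164 to 55088475, with 19 fragments (11.4 to 29.7) at the higher. The printed element of Hspe1 lay within the control peak and in the gap between the asthmatic-mother peaks. At Dnajb6 the control list held a peak from 29735679 to 29735899, which takes in the printed element, and a stronger one from 29736015 to 29736675, whereas the asthmatic-mother list held only the downstream peak, from 29736072 to 29736579. At Dnaja1 and Hspb1 no start peak of either list reached the printed elements. The Dnaja1 peaks began at 40722601 in the control list and 40722621 in the other. The Hspb1 control peak began at 135888137.

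Of the J-domain genes, the endoplasmic reticulum member Dnajb11, a partner of Hspa5, had the highest percentile of all chaperone genes in the asthmatic-mother list, 94.1, and stood at 95.6 in the control list, with 24 and 31 fragments. Dnajc25, listed with the endoplasmic reticulum, was next in the asthmatic-mother list at 92.4 (control 95.1). Dnajc13, which acts on endosomes, followed at 92.2 (control 85.9). Its start peaks summed to 846 bp in that list and 1163 bp in the control list, but these sums include 341 and 384 bp, respectively, of an internal peak with a repeated summit. Without it the sums were 505 and 779 bp, and the widest start peaks of the asthmatic-mother list were those of Hspd1 and Hspe1, at 721 bp. Dnajb4, a heat-inducible partner of HSP70, stood at 90.3 (control 89.8), with 1177 and 693 bp in the control and asthmatic-mother lists. Dnajc9, a histone chaperone, stood at 90.0 (control 93.0). Dnajc10, a disulfide reductase of the endoplasmic reticulum, was among the highest in the control list, at 96.3, and stood at 79.7 in the other. Among all peaks, 4 of the 54 genes had a higher percentile in the asthmatic-mother list, Dnajb12, Dnajb4, Dnajc13 and Dnajc7, beside 13.3% of all genes in both lists, and 30 of the 54 are J-domain genes. Ranked among start peaks alone, 22 of the 54 (40.7%) stood higher in that list, beside 42.3% of all genes in both lists. The 22 include Dnajb11 (88.4 in the control list and 96.7 in the other), Dnajc25 (86.7 and 94.8) and Dnajc9 (79.6 and 91.7). Their direction thus turns with the ranking, while Dnajc10 stayed lower in the asthmatic-mother list (91.0 and 76.1). At an internal annotated start of Dnajc13 both lists held this further peak, from 104227838 to 104228221 and from 104227858 to 104228198 of chromosome 9, with 28 fragments in the control list and 31 in the asthmatic-mother list. The 75 bases at its summit occur at 40 other places in the genome, so its reads cannot be placed with certainty.

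Cct3 had the highest percentile of all chaperone genes in the control list, 98.4, with 38 fragments (26.9 to 52.2). In the asthmatic-mother list its peak was 156 bp wide, that list's smallest width, with 11 fragments (5.49 to 19.7) at the 7.04th percentile. Cct2 stood at 96.3 and 88.1, with 31 and 20 fragments, and Cct4 at 95.8 and 57.2, with 34 and 15. Cct7 had start peaks of 1233 and 590 bp, with 29 and 15 fragments. The subunits work together in the same ring. Ranked among start peaks alone, the 6 genes in both lists ran from 45.0 at Cct7 to 97.7 at Cct3 in the control list and from 4.04 at Cct3 to 89.0 at Cct2 in the other, so they were widely spread in both. Lower still in that list, at the 4.32nd percentile, were Hspbp1, an exchange factor for HSP70 with 26 and 10 fragments, and the shared peak of Hspa1a and Hspa1l.

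The 11 genes with a start peak in the control list alone fell into weak and strong peaks. Fragments at their control summits ran from 9 to 33, and 6 of the 11 lay under 19, the lowest value among the 54 genes in both lists. These were Hspb1 (9 fragments), Hspb9 (12), Dnajc27 (13), Dnajc12 (16), Dnajc4 (16) and Dnajc28 (17). Hspb1 had a fold of 3.54 and stood at the 0.0356th percentile, near the end of the control list, and the 75 bases at its summit occur at 1 other place in the genome. With single-copy summits alone it had no start peak. Hspb9, a testis-restricted member, stood at the 2.12th percentile. The other 5 were Hspa13 (21), an HSP70 of the endoplasmic reticulum, Dnajb5 (23), Dnajc16 (24), Cct6b (33) and Dnaja3 (33).

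To read these against their height, each was set beside the other autosomal coding genes whose strongest control start peak had a −log10 q within 0.5 of its own. Of 94 such genes for Hspb9, 86.2% (77.5 to 92.4%) had no start peak in the asthmatic-mother list. The count was 144 of 192 (68.3 to 81.0%) for Dnajc4, and the share 68.7% of 284 for Dnajc27, 56.7% of 409 for Dnajc12 and 34.5% of 519 for Dnajc28. It was 20.9% of 679 for Dnajc16, 14.3% of 743 for Hspa13 and 12.6% of 815 for Dnajb5. For Hspb1 only 4 genes were alike, of which 2 lacked one. For Dnaja3 it was 12 of 420 (2.86%, 1.48 to 4.94%), and for Cct6b 4 of 373 (1.07%, 0.293 to 2.72%), 1 of which is Zfp830 at the same peak. Start peaks as high as those of Dnaja3 and Cct6b were thus seldom missing from the asthmatic-mother list, while a gap at the height of Hspb9 or Dnajc4 was common.

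**Figure D3:**
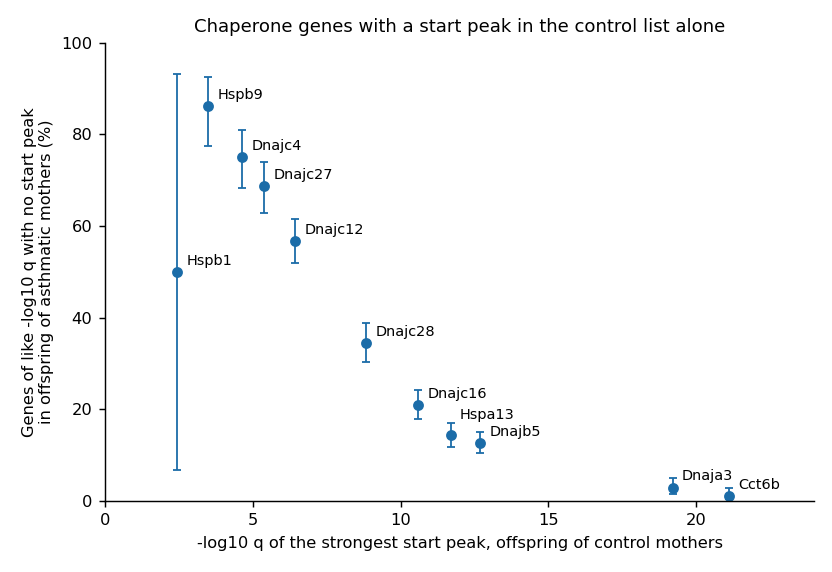
For each of the 11 chaperone genes with a start peak in the control list alone, the −log10 q of that peak (horizontal) and the share, in percent, of other autosomal coding genes of like −log10 q that had no start peak in the asthmatic-mother list (vertical, with exact Clopper-Pearson 95% intervals). The share falls from 86.2% at Hspb9 to 2.86% at Dnaja3 and 1.07% at Cct6b.

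Dnaja3, a J-domain protein of mitochondria, lies on the plus strand of chromosome 16. The annotated 5′ end of the gene, at 4639989, belongs to a transcript without a coding sequence, and with that end alone Dnaja3 had a start peak in neither list. At the start of its protein-coding transcripts the control peak ran from 4684094 to 4684588, with a fold of 8.38, 33 fragments (22.7 to 46.3), a −log10 q of 19.2 and the 93.9th percentile. The nearest asthmatic-mother peak to an annotated start was 4367 bp away, from 4679090 to 4679703 within the longest annotated form of the gene, where the control list also held a peak, from 4679050 to 4679655. At that second place the −log10 q was 9.50 in the control list and 5.94 in the asthmatic-mother list. Cct6b, the CCT subunit known from testis, is read from the minus strand of chromosome 11 and starts opposite Zfp830. Its control peaks ran from 82764037 to 82764245 and from 82764346 to 82764865, the stronger with a fold of 9.34, 33 fragments (22.7 to 46.3), a −log10 q of 21.1 and the 95.7th percentile. The nearest asthmatic-mother peak was 16877 bp away. Hspa13 had 2 control peaks, 859 bp in all, and no asthmatic-mother peak within 23726 bp, and Dnajb5 a control peak of 378 bp and none within 46494 bp. The 75 bases at the strongest summits of these 4 genes occur once in the genome.

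The 14 genes with a start peak in neither list were Cct8l1, Dnajb3, Dnajb7, Dnajb8, Dnajb13, Dnajc5b, Dnajc5g, Dnajc6, Dnajc22, Hspa12b, Hspb2, Hspb3, Hspb7 and Hspb8. Of them 10 are on the testis, muscle or lens list, which holds 15 of the 79 genes. The others include Dnajc6, the neuronal auxilin, and Hspb8, the only heat-inducible gene listed that had no start peak in either list. For Hspb8 the nearest peaks were 51974 and 51962 bp away in the control and asthmatic-mother lists. Few genes lay near the limit of 1000 bp. The farthest counted in the control list were Hspa1l at 670 bp, Dnajc16 at 203 and Dnajc21 at 155, and the nearest not counted were Dnajc5b at 4014, Dnajb13 at 4594 and Dnajc5g at 5427. In the asthmatic-mother list the farthest counted were Hspa1l at 606, Hspa12a at 396 and Hspa4 at 362, and the nearest not counted were Hspb3 at 1236, Hspb9 at 1323 and Dnajc4 at 1997.

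Peaks sat at similar places at chaperones and other genes. A peak covered an annotated start base for 46 of 65 chaperone genes in the control list (70.8%) and 26 of 54 in the asthmatic-mother list (48.1%), beside 74.0% and 49.5% of all genes with a start peak. The summit of the strongest peak lay downstream of the nearest start for 75.4% and 74.1%, beside 75.4% and 74.7%. Of the 65 genes, 24 (36.9%) shared a start peak with the start of another coding gene, as Dnajb1 did with Tecr, Dnajc30 with Bud23 and Dnajb4 with Fubp1. Part of the mark counted there may stand at the neighbour. The 24 include Hspd1 with Hspe1 and Hspa1a with Hspa1l. This share was not computed over all coding genes, so it cannot be called high or low. Of the 81 control and 69 asthmatic-mother peaks at chaperone starts, 72.8% and 95.7% overlapped a peak of the other list, beside 70.9% and 95.9% of all start peaks.

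In sequence, the 5′ ends differed with the list. Over the 300 bases from 250 before to 50 after each 5′ end in the GENCODE annotation, the median observed over expected CpG was 0.75 for the 79 chaperone genes, beside 0.54 for 20802 autosomal coding genes. It was 0.86 for the 54 genes in both lists, 0.68 for the 11 in the control list alone and 0.31 for the 14 in neither, beside 0.78, 0.68 and 0.23 over all genes of the same kind. Dnajc6 stood apart among the 14, with a ratio of 0.97 and no start peak. The element GAANNTTC, on either strand, was found in 13 of the 79 windows (16.5%), beside 7.58% of all windows. By list, 6 of the 54 genes in both lists (11.1%), 3 of the 11 in the control list alone (27.3%) and 4 of the 14 in neither (28.6%) held it, beside 5.70%, 6.06% and 9.67% of all genes of the same kind. The 6 were Dnajb1, Dnajc18, Hspa1a, Hspa1b, Hspa9 and Hspe1. For some genes the marked start is not the 5′ end of the gene, so their windows lie away from the peaks counted. At Dnajc18 the window is at 35708414 and the control peak ends at 35703431. At Dnajc12 the window is at 63382443 and the control peak begins at 63386607. With the 5′ end alone, 61 genes had a start peak in the control list and 51 in the asthmatic-mother list. The longer element was in 1 window, that of Hspe1 (1.27%, beside 0.486% of all). Dnajb6 and Hsph1 hold the longer element and Dnaja1 the shorter one in their RefSeq entries, whose starts differ from the GENCODE 5′ ends, and so were not counted in these windows. At Hsph1 it lies downstream of the RefSeq start. TATAAA was found in 8.86% and CCAAT in 41.8% of the chaperone windows, beside 8.71% and 38.6%. These are matches of letters in the reference and not sites of binding.

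**Figure D4:**
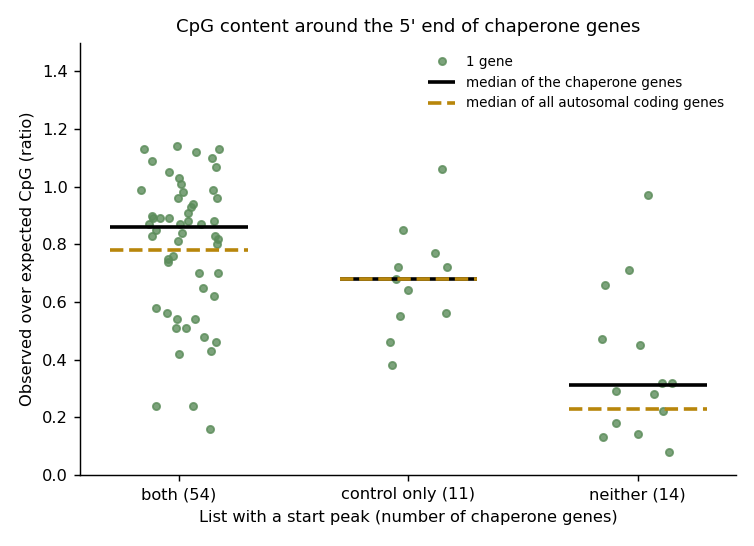
Observed over expected CpG (ratio) in the 300 bases around the 5′ end of each of the 79 chaperone genes, by the list that held a start peak. Each point is a gene (sideways position is arbitrary), black lines are the medians of the chaperone genes (0.86, 0.68 and 0.31) and dashed lines those of all autosomal coding genes of the same kind (0.78, 0.68 and 0.23).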

How the data were processed

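H3K4me3 CATCH-seq of lung ILC2s was read from 1 deposited peak list per library, offspring of control mothers and offspring of asthmatic mothers. The authors trimmed the reads with TrimGalore and Cutadapt, aligned them to GRCm38 (mm10) with Bowtie 2, and used Sambamba against duplicates. For these data the peak caller, its threshold and the use of the input made from 5% of each lysate are not given in the sources used here. In its reporting summary the study says that the ChIP-seq had no peak calling, yet a list was deposited for each library. In the deposited lists each peak has a score, a fold (the ratio of the summit signal to the caller's background), a −log10 p-value and a −log10 q-value, given by the deposited lists, each on its own. None of these values is scaled between libraries, so peaks were ranked within a list, as percentiles of −log10 q.

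The genes, functional lists and tests were chosen with earlier results of these data known. Starts came from GENCODE vM21, and peaks within 1000 bp were counted. Fragments at summits were solved from fold and −log10 p under a Poisson background with 1 added to both (relative tolerance 0.0001), which assumes calling without an input. Shares have exact Clopper-Pearson 95% intervals and fragments exact Poisson ones. Copies of the 75 bases around summits were counted on 21 chromosomes. With 1 library per group no p-value was computed. The steps were tested on simulated data. Genes named were those in 1 list or neither and the 5 widest and 5 highest of each list. Genes sharing a peak or with a copied summit and the functional lists were also named. So were the 3 nearest either side of the limit and partners in 1 list or neither. Other partners and markers with a peak, Dnajc13's internal peak, Dnajb6, Dnajc15, Hspbp1, Dnajb12 and Dnajc7 were named after their values were seen. The tools were matplotlib 3.10.9, scipy 1.17.1, pandas 2.3.3 and numpy 2.4.6 in Python 3.11.15.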

Additional observations from a re-analysis of the deposited data

How the results depend on the processing

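No paired analysis was possible because each group is a single library. With the 10000 peaks of highest −log10 p of each list, start peaks were left for 60.8% of the chaperone genes in the control list and 16.5% in the asthmatic-mother list, with 35 genes (44.3%) in the control list alone and 13 in both. Over all autosomal coding genes the shares at this setting were 33.8% and 9.82%, with 24.9% in the control list alone and 8.91% in both. Genes in the asthmatic-mother list alone rose from 0 to 1 with a distance of 2000 bp and to 3 with single-copy summits alone, where Hspa1a, Hspa1b and Hspa1l lost their control peak. Ranked among start peaks alone, the median control percentile of the genes in both lists was 64.0 in place of 88.1, and that of the asthmatic-mother list 52.2 in place of 63.0. With distances of 500 bp, a −log10 q of at least 5, the 5′ end of each gene alone, or protein-coding transcripts alone, the shares and the counts of genes in both lists and in the control list alone stayed within 1.5 times their values or within the intervals. Of 126 counts by family under all the alternatives, 111 stayed so and 15 moved, 11 of them with the 10000 peaks. Functional lists were not run under the alternatives. Differences between the libraries have no replicate, the lists give no reads, and signal under the caller's threshold is not seen.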

Other observations

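Of the genes whose symbols match but which lie outside the rule, 16 in all, 15 are pseudogenes, and 1 of these, Hspe1-ps6, had a start peak in each list, at the 59.0th percentile of the control list and the 22.2nd of the asthmatic-mother list. The remaining gene was Cct6a, the CCT subunit of somatic cells, which the annotation marks as a processed transcript. It had start peaks of 699 bp in the control list, with a fold of 8.34 (89.1st percentile), and 418 bp in the asthmatic-mother list, with a fold of 7.79 (84.5th), whereas its testis relative Cct6b had none in the asthmatic-mother list.

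Within the bodies of the chaperone genes, away from their own annotated starts, the control list held 5 peaks in 4 genes (5.06% of 79) and the asthmatic-mother list 11 peaks in 7 genes (8.86%), beside 15.4 and 17.8% of all autosomal coding genes. Gene length was not taken into account. In Dnajc5b, which had no start peak, both lists held one at nearly the same place, from 19541131 to 19541339 and from 19541119 to 19541287 of chromosome 3, at the 51.2nd and 57.2nd percentiles. In Dnajc3, a lumenal regulator of the unfolded protein response, the asthmatic-mother list held 3 such peaks and the control list none. These are values of single libraries, with no control region beside them.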
